A study of Mus musculus with 4 samples.

Results

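The genes examined were Phgdh, Psat1, Psph, Shmt1, Shmt2, Mthfd1, Mthfd2, Mthfd1l and Aldh1l2, the 9 genes of serine synthesis and of the folate-dependent one-carbon cycle whose symbols were looked up in the gene tables. All 9 were listed among 24411 genes in each of 4 RNA-seq libraries of late two-cell stage mouse embryos, and 8 of them had enough counts to be tested. Embryos of the ICR strain were produced by in vitro fertilization, cultured in KSOM medium with bovine serum albumin and collected at 36 h post-insemination (hpi), with 10 embryos pooled in each library. In 2 libraries the embryos had been treated with 6 µM 10074-G5, a small molecule that binds MYC and prevents it from pairing with MAX, and in the other 2 they had been treated with DMSO, the solvent of the inhibitor. The treatment began at 3 hpi according to the sample labels and at 6 hpi according to the series description. The comparison asks which transcripts of these pathways differ between embryos in which MYC is inhibited and control embryos around major zygotic genome activation.

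Serine is made from the glycolytic intermediate 3-phosphoglycerate in 3 steps, catalysed by PHGDH, PSAT1 and PSPH. Serine hydroxymethyltransferases then split serine into glycine and a one-carbon unit that is carried by tetrahydrofolate. The cytosolic enzymes SHMT1 and MTHFD1 and the mitochondrial enzymes SHMT2, MTHFD2, MTHFD1L and ALDH1L2 handle these units in parallel, and the products feed purine and thymidylate synthesis, methylation and NADPH production. In proliferating cells several of these genes are known targets of MYC and of the stress-response factor ATF4.

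The promoters of the 5 genes whose levels did not overlap between the groups are given here as a description. Whether MYC acts on these sequences was not tested. RefSeq promoter windows of GRCm38.p6 (mm10), which run from 250 bases before to 50 bases after the annotated start, were found for 8 of the 9 genes, all but Aldh1l2. In lower case with capitals for each CCAAT box (CCAAT, or ATTGG on the other strand) and each CACGCG (or CGCGTG), a non-canonical form of the E-box bound by MYC, the windows are:
Phgdh: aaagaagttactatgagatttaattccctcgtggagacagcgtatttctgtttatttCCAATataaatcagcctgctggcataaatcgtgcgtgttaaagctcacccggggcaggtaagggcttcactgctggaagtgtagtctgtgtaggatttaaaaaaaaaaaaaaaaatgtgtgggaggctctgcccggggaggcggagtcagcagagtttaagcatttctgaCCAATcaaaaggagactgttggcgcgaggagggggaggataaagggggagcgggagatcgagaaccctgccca
Psat1: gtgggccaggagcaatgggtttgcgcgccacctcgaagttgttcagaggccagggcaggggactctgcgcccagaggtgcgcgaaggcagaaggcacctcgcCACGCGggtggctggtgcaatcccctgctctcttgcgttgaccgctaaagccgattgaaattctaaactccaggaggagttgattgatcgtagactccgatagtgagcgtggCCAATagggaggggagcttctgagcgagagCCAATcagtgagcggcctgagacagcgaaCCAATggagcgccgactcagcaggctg
Shmt1: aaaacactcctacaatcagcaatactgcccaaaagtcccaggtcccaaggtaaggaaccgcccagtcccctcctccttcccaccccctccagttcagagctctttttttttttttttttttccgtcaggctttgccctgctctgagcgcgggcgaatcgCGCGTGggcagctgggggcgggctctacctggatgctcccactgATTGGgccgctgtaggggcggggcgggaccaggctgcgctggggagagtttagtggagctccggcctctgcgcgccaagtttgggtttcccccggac
Shmt2: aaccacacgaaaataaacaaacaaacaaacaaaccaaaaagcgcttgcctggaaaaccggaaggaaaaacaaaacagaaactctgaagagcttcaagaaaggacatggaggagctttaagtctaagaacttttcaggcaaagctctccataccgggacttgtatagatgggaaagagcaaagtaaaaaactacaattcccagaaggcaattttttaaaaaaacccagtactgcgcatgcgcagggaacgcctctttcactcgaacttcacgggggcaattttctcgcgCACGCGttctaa
Mthfd2: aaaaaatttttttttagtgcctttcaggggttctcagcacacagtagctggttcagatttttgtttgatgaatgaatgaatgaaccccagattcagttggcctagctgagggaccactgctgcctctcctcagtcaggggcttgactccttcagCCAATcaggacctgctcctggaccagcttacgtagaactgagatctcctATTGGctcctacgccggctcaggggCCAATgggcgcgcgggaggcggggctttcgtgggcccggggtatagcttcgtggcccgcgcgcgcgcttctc

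These windows lie at chr3:98339920-98340219 (strand minus) for Phgdh, chr19:15925010-15925309 (strand minus) for Psat1, chr11:60811216-60811515 (strand minus) for Shmt1, chr10:127522395-127522694 (strand minus) for Shmt2 and chr6:83317555-83317854 (strand minus) for Mthfd2. Among the printed windows, that of Mthfd2 alone lies wholly inside the gene span given below, which ends at 83326011. It is the only window found for Mthfd2, and whether the counted transcript starts there was not checked. The canonical E-box CACGTG, which reads the same on both strands, was in the windows of 0 of the 8 genes, and 7.15% of 32851 mouse promoter windows of the same length held it. The core of the amino acid response element bound by ATF4, searched as TGATGNAA on both strands, was also in 0 of the 8 and in 3.97% of all windows. Sequence outside these windows was not searched, so the absence of either motif here does not show that the genes lack such sites. CACGCG was found for 3 genes, Psat1, Shmt1 and Shmt2, and CCAAT for 6 genes, all but Shmt2 and Mthfd1l. Counted by window, CACGCG was in 4 of 9 and CCAAT in 6 of 9, beside 9.27% and 37.4% of all windows. Psat1 has 2 annotated starts, of which the upstream one is printed. Both of its windows held CACGCG and only the printed one held CCAAT. The last 2 motifs were chosen after the sequences were seen, and a match is a description of the letters, not a binding site.

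Expected counts summed to between 18206584 and 20718690 per library. The libraries were not equally alike: across the 13549 tested genes, log2 CPM (counts scaled to library size with TMM factors) had a Pearson's r of 0.887 between the DMSO replicates and 0.931 between the inhibitor replicates, and DMSO replicate 1 lay farther than DMSO replicate 2 from the mean of the treated libraries for 77.2% of the genes. Log2 fold changes by edgeR and the medians of gene lists are therefore also given without DMSO replicate 1. All 8 two-cell markers were detected at 1 FPKM or more in some library, with a summed FPKM of 1019 in DMSO replicate 1 and of 2643 to 3281 in the other libraries. The summed FPKM of 10 oocyte transcripts was 1196 and 2843 in the DMSO libraries and 6124 and 4944 in the treated ones. The 4 sperm transcripts summed to 1.56 and 4.44 FPKM in the DMSO and to 15.8 and 9.05 in the treated libraries, with Prm1 and Tnp2 at 0 throughout. The part of these differences in the results on the 9 genes was not tested. Of 12 markers of cumulus and granulosa cells, which surround the egg, 10 were under 1 FPKM in all 4 libraries, and Ptx3, Inhba and Foxl2 were at 0. The summed FPKM of the 12 was 22.2 and 13.3 in the DMSO and 9.94 and 6.79 in the treated libraries, of which Amhr2 alone made up 21.5 in DMSO replicate 1. As whole embryos were pooled, fewer blastomeres expressing a gene and less RNA per blastomere cannot be told apart. All values are relative to the polyadenylated RNA of each library, so they do not give amounts of RNA per embryo.

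In inhibitor-treated embryos the levels of Phgdh, Psat1 and Shmt1 lay below, and those of Shmt2 and Mthfd2 above, both DMSO libraries. By edgeR the log2 fold change (log2FC, treated over control) of these 5 genes was -2.00, -1.15, -0.97, 0.95 and 1.02, in that order. A gene was called where its adjusted p was under 0.05 and its log2FC was beyond 1 in either direction, and none of these 5 was called. The levels of Psph, Mthfd1 and Mthfd1l overlapped between the groups. The quasi-likelihood test of edgeR, adjusted by Benjamini-Hochberg, called 0 of the 8 tested genes and 0% of all 13549. At an unadjusted p under 0.05 there were 2 lower genes (Phgdh and Psat1) and 0 higher ones, where 10.1% of all tested genes were lower and 4.72% higher (14.9% in either direction). The 5 of 8 genes whose groups did not overlap, 3 of them lower and 2 higher, have to be read against 57.3% of all tested genes without overlap, 28.3% lower and 28.9% higher. This share is close to that of the 8 genes. DESeq2, the tool of the study, called 1 of the genes, Phgdh, and it called 5.48% of genes with an adjusted p as lower and 1.09% as higher. Phgdh was also the one gene called by DESeq2 on the genes that edgeR tested (7.73% of all called lower, 1.57% higher), by DESeq2 with effective lengths (5.75% and 1.14%) and by edgeR without the filter on low counts (2.63% and 0.906%). With a replicate block, 0.236% of all genes were called lower and 0.0886% higher. Without inhibitor replicate 1 these shares were 0.0221% and 0.0148%, and without inhibitor replicate 2 they were 0.059% and 0.0148%. In these 3 fits none of the 9 genes was called.

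**Figure D1:**
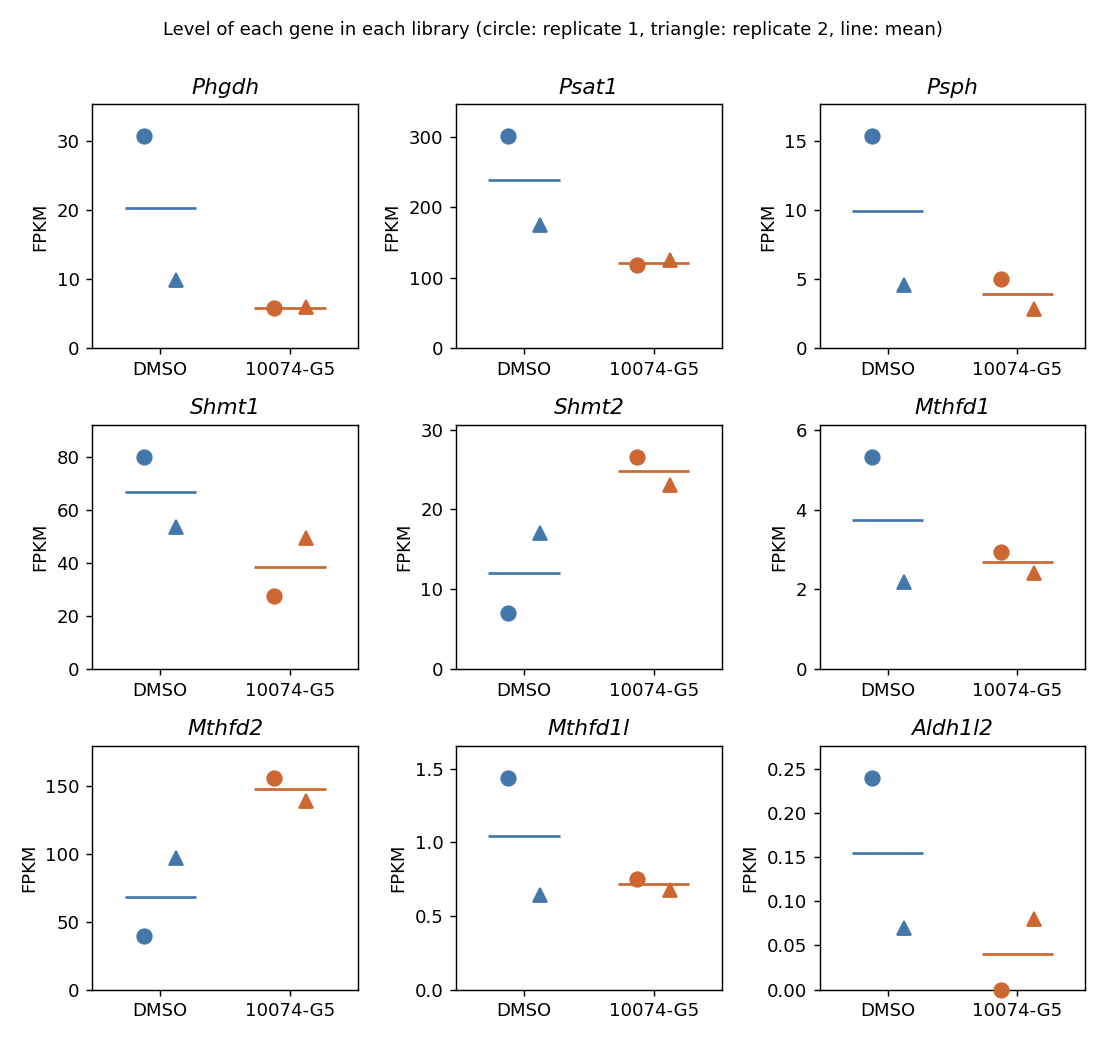
FPKM (fragments per kilobase of transcript, scaled to library size, vertical axes, each from 0) of the 9 genes in the 2 DMSO libraries (blue) and the 2 inhibitor libraries (orange). Circles are replicate 1, triangles replicate 2 and lines group means, and in all 9 panels the DMSO circle stands apart from the DMSO triangle.

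Of the serine synthesis genes, Phgdh (chromosome 3 of GRCm38.p6, from 98313171 to 98339969) encodes phosphoglycerate dehydrogenase, which commits 3-phosphoglycerate to serine. Its level was 30.6 FPKM in DMSO replicate 1 and 9.88 in replicate 2, against 5.77 and 5.93 in inhibitor replicates 1 and 2. The treated libraries were almost equal and the DMSO libraries were 3.69-fold apart in CPM, so that DMSO replicate 2 was nearer to the treated libraries (1.70-fold above their mean) than to the other control. The CPM averaged 35.5 ± 28.8 (SD, n = 2) with DMSO, against 8.89 ± 0.044 (SD, n = 2) with the inhibitor. The log2FC was -2.00 (standard error 0.65, adjusted p = 0.333 by edgeR), -2.02 by DESeq2 (standard error 0.65, adjusted p = 0.0379), and -0.75 by edgeR without DMSO replicate 1 (adjusted p = 0.477). Over all alternatives the adjusted p of Phgdh ranged from 0.00158 to 0.992.

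Psat1 (chromosome 19, from 15905123 to 15925059) encodes phosphoserine aminotransferase, the second enzyme of the route. It was the most abundant of the 9 transcripts in control embryos, above 97.4% of all listed genes in mean FPKM, and came after Mthfd2 in treated embryos, above 95.7%. Psat1 was at 300.4 FPKM in DMSO replicate 1 and 175 in replicate 2, against 117 and 125.0 in inhibitor replicates 1 and 2. Its order over the libraries was thus that of Phgdh, with a smaller range. The log2FC was -1.15 (standard error 0.44, adjusted p = 0.333 by edgeR), with an adjusted p of 0.0912 by DESeq2. Without DMSO replicate 1 it was -0.53 (adjusted p = 0.329), and over all alternatives the adjusted p of Psat1 ranged from 0.00161 to 0.992. The mean transcript length that RSEM derived from its 2 isoforms was 2172 bases in every library.

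Psph (chromosome 5, from 129765558 to 129787443) encodes phosphoserine phosphatase, which releases free serine. It had 15.3 FPKM in DMSO replicate 1 and 4.55 in replicate 2, against 5.01 and 2.85 in inhibitor replicates 1 and 2. Only DMSO replicate 1 stood above the rest, and the other control library fell between the treated ones. The log2FC of Psph was -1.54 (standard error 0.76, adjusted p = 0.368 by edgeR) with all libraries and -0.21 (adjusted p = 0.929) without DMSO replicate 1.

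Of the cytosolic one-carbon enzymes, Shmt1 (chromosome 11, from 60788897 to 60811265) encodes the cytosolic serine hydroxymethyltransferase. Its level was 80.1 FPKM in DMSO replicate 1 and 53.7 in replicate 2, against 27.7 and 49.5 in inhibitor replicates 1 and 2. Both treated libraries lay below both controls, but inhibitor replicate 2 and DMSO replicate 2 were close, and the treated libraries were 1.75-fold apart in CPM. The log2FC of Shmt1 was -0.97 (standard error 0.46, adjusted p = 0.356 by edgeR) and -0.47 without DMSO replicate 1 (adjusted p = 0.598).

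Mthfd1 (chromosome 12, from 76254406 to 76319820) encodes the trifunctional cytosolic enzyme that interconverts formyl-, methenyl- and methylene-tetrahydrofolate. It was at 5.32 FPKM in DMSO replicate 1 and 2.18 in replicate 2, against 2.94 and 2.42 in inhibitor replicates 1 and 2. The lowest and the highest library were both controls. EdgeR gave Mthfd1 a log2FC of -0.68 (standard error 0.64) and an adjusted p of 0.609, and the sign turned without DMSO replicate 1, to 0.30 (adjusted p = 0.855).

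Of the mitochondrial enzymes, Shmt2 (chromosome 10, from 127517123 to 127522444) encodes the mitochondrial serine hydroxymethyltransferase. Its level was 6.96 FPKM in DMSO replicate 1 and 17.1 in replicate 2, against 26.6 and 23.0 in inhibitor replicates 1 and 2. The treated libraries were both above the controls, and the controls were 2.06-fold apart in CPM. The log2FC of Shmt2 was 0.95 (standard error 0.47, adjusted p = 0.371 by edgeR), and 0.54 without DMSO replicate 1 (adjusted p = 0.454).

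Mthfd2 (chromosome 6, from 83305704 to 83326011) encodes the mitochondrial methylene-tetrahydrofolate dehydrogenase and cyclohydrolase, which acts directly after SHMT2. It was at 39.8 FPKM in DMSO replicate 1 and 97.3 in replicate 2, against 156 and 139 in inhibitor replicates 1 and 2. The order of the libraries was the same as for Shmt2, the reverse of that of Psat1. The log2FC of Mthfd2 was 1.02 (standard error 0.44, adjusted p = 0.337 by edgeR), with an adjusted p of 0.133 by DESeq2, and it was 0.60 without DMSO replicate 1 (adjusted p = 0.326).

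Mthfd1l (chromosome 10, from 3972892 to 4167081) encodes the mitochondrial enzyme that releases formate for export to the cytosol. Its level was 1.44 FPKM in DMSO replicate 1 and 0.64 in replicate 2, against 0.75 and 0.68 in inhibitor replicates 1 and 2. Only DMSO replicate 1 differed from the others, as for Mthfd1. EdgeR gave Mthfd1l a log2FC of -0.73 (standard error 0.85) and an adjusted p of 0.684, and the sign turned to 0.16 without DMSO replicate 1 (adjusted p = 0.965).

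Aldh1l2 (chromosome 10, from 83487447 to 83534146) encodes the mitochondrial 10-formyl-tetrahydrofolate dehydrogenase, which yields NADPH. It had 26 and 7 counts in the DMSO libraries and 0 and 9 in the treated ones, too few to pass the filter on low counts. The count of 0 in inhibitor replicate 1 allows up to 3 counts, or 0.0252 FPKM, an upper limit that covers counting error only. A difference between the groups was not detectable at this depth.

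**Figure D2:**
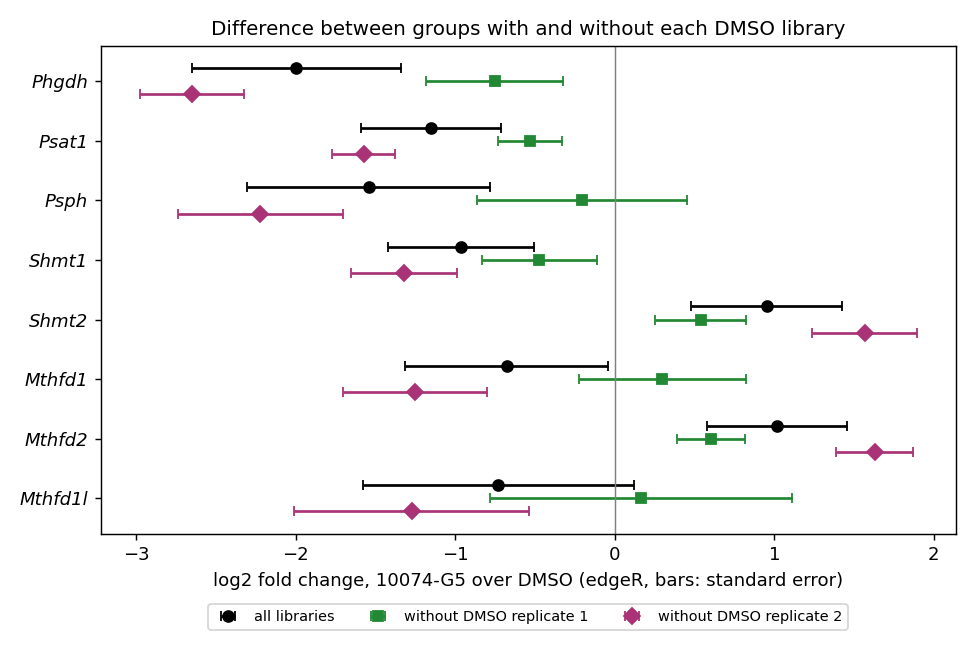
Log2FC of the 8 tested genes (horizontal axis, treated over control, edgeR) with bars of 1 standard error, fitted with all libraries (black), without DMSO replicate 1 (green) and without DMSO replicate 2 (purple). For each gene the black point lies between the green and the purple one, and Mthfd1 and Mthfd1l cross 0 without DMSO replicate 1.

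For all 8 tested genes DMSO replicate 1 was farther than DMSO replicate 2 from the treated mean, and the CPM of the DMSO libraries differed by a larger fold (1.78 for Shmt1 to 4.01 for Psph) than that of DMSO replicate 2 and the treated mean (1.11 for Mthfd1l to 1.70 for Phgdh). Without DMSO replicate 1 the median log2FC of the 8 genes went from -0.85 to -0.02, while that of all tested genes was 0.04 and 0.03. The sign was kept by Phgdh, Psat1, Psph, Shmt1, Shmt2 and Mthfd2. At an unadjusted p under 0.05 there were then 1 lower gene (Psat1) and 1 higher gene (Mthfd2), against 7.4% and 6.54% of all tested genes. In that fit the lone control library is assumed to vary like the treated ones. Without DMSO replicate 2 the same edgeR test called 6 of the 8 genes, 4 lower and 2 higher, but also 14.9% of all tested genes as lower and 15.8% as higher.

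The order of the levels differed between the groups. In mean FPKM of control embryos Psat1 stood first with 238 ± 88.4 (SD, n = 2), followed by Mthfd2 with 68.5 ± 40.7 (SD, n = 2) and Shmt1 with 66.9 ± 18.7 (SD, n = 2), whose ranges overlapped. Phgdh, Shmt2, Psph and Mthfd1 came next, with a range that overlapped that of the neighbour at each step, and Mthfd1l and Aldh1l2 were last. In treated embryos Mthfd2 stood first with 148 ± 12.2 (SD, n = 2), above Psat1 with 121 ± 5.39 (SD, n = 2), without overlap. Shmt1 and then Shmt2 followed, again without overlap, and only Psph and Mthfd1 overlapped as neighbours. Of the summed FPKM of the 9 genes, Psat1 took 62.6% in DMSO replicate 1 and 48.6% in replicate 2, against 34.3% and 35.9% in inhibitor replicates 1 and 2. For Mthfd2 these shares were 8.28%, 27.0%, 45.6% and 39.9%. The most abundant transcript of the set was thus Psat1 in both controls and Mthfd2 in both treated libraries. Neither gene was called by edgeR or DESeq2 with all libraries, and the order of the levels was not tested.

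Mitochondrial and cytosolic enzymes of the same step were also compared within each library, a ratio that does not depend on how the libraries are scaled. Shmt2 over Shmt1 gave 0.0868 and 0.319 in DMSO replicates 1 and 2, and 0.960 and 0.464 in inhibitor replicates 1 and 2. The cytosolic form exceeded the mitochondrial one in all 4 libraries, and the treated libraries had the higher ratios. The ratio of Mthfd2 to Mthfd1 was 7.47, 44.6, 53.1 and 57.4 in the same order, so that DMSO replicate 1 alone stood far below the rest. For the sum of the 4 mitochondrial enzymes over that of the 2 cytosolic ones it was 0.566, 2.06, 5.99 and 3.13. This last ratio averaged 1.31 ± 1.06 (SD, n = 2) with DMSO, against 4.56 ± 2.02 (SD, n = 2) with the inhibitor. It mostly reflects Mthfd2 and Shmt1, which encode enzymes of different steps. In inhibitor replicate 1, Mthfd2 gave 156 of the 184 mitochondrial FPKM and Shmt1 gave 27.7 of the 30.6 cytosolic FPKM. The levels of Mthfd1l, which is in the mitochondrial sum, overlapped between the groups. These ratios are descriptions with no test, since with 2 libraries a group the smallest two-sided p of an exact permutation test is 0.333.

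**Figure D3:**
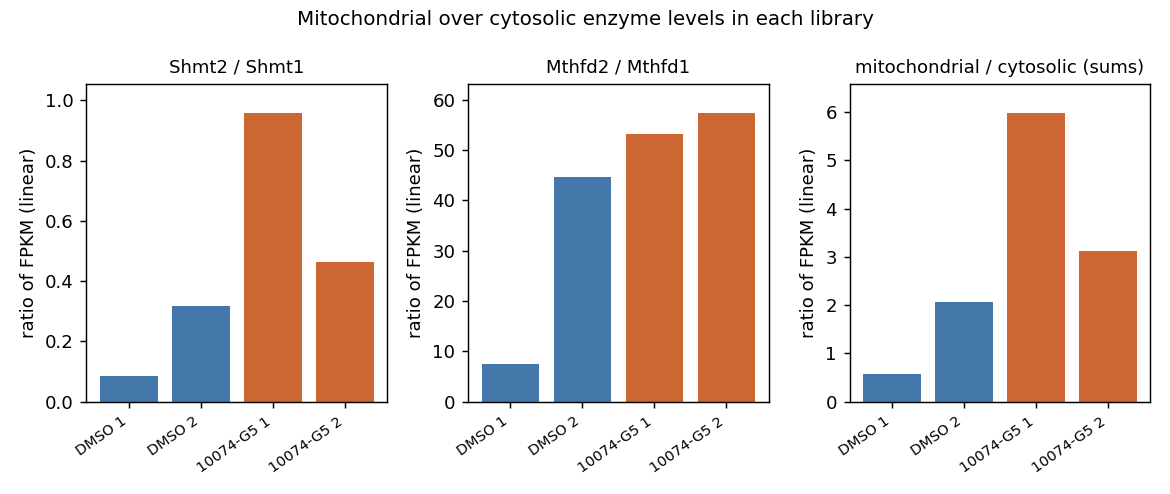
Ratios of FPKM (linear vertical axes from 0) of Shmt2 to Shmt1, Mthfd2 to Mthfd1 and the 4 mitochondrial to the 2 cytosolic enzymes in the DMSO (blue) and inhibitor (orange) libraries, 1 bar per library. In each panel the 2 treated bars are higher than both DMSO bars, and the bar of DMSO replicate 1 is the lowest.

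The profiles over the 4 libraries fell close together for some pairs. As a measure of likeness the Euclidean distance between log2 CPM values centred on the mean of each gene was used, over 4 libraries. It was 0.0757 between Shmt2 and Mthfd2, which act in sequence in the mitochondrion, and 0.144 between Mthfd1 and Mthfd1l. Between Phgdh and Psat1 it was 0.878, and between Psat1 and Shmt1 it was 0.555. Psat1 and Mthfd2 were 2.62 apart. Among 5151 other genes whose FPKM averaged 10 or more, those nearest to Psat1 were Ncl, which encodes nucleolin (distance 0.0235), Akap8 (0.0379) and Cdk7 (0.0476). Each of these lay nearer to Psat1 than Shmt2 did to Mthfd2. Distances over all pairs of genes were not taken as a background, so whether closeness goes with a shared pathway was not tested. With 4 libraries these distances are descriptions.

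Of the other genes of serine, glycine, folate and methionine metabolism, 49 were taken in 8 lists, and 41 were tested. Their median log2FC was -0.58, with 27 lower and 14 higher. By edgeR 0 were called. At an unadjusted p under 0.05 there were 11 lower genes and 1 higher gene, beside 10.1% and 4.72% of all tested genes. Groups did not overlap for 22 lower and 9 higher genes, beside 28.3% and 28.9%. Without DMSO replicate 1 the median was -0.33, and 7 lower genes and 1 higher gene had an unadjusted p under 0.05, beside 7.4% and 6.54%. DESeq2 called 3 genes lower and 1 higher among the 30 with an adjusted p, beside 5.48% and 1.09% of all genes. As the lists were written with earlier results of these data known, these counts are not independent of those results. Whether the lists differ from all genes as sets was not tested.

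The glycine cleavage system, which breaks down glycine in mitochondria and yields a one-carbon unit, had a median of -1.30 over 3 tested genes, and of -0.56 without DMSO replicate 1. Gldc, which encodes its decarboxylase, was at 55.9 FPKM in DMSO replicate 1 and 17.0 in replicate 2, against 9.0 and 8.60 in inhibitor replicates 1 and 2, the same order as that of Phgdh but for the near-equal treated libraries. DESeq2 called Gldc as lower, at a log2FC of -2.28, with a standard error of 0.59 and an adjusted p of 0.00959. By edgeR the log2FC was -2.26 (adjusted p = 0.333), and -0.95 without DMSO replicate 1.

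In the methionine cycle, which turns the one-carbon unit into the methyl donor S-adenosylmethionine, the median was -0.33 over 10 tested genes and -0.29 without DMSO replicate 1. Mat2a, the catalytic subunit of methionine adenosyltransferase, was at 293 and 110.0 FPKM in control and 62.2 and 68.7 in treated embryos, with no overlap. DESeq2 called Mat2a as lower (log2FC -1.84, standard error 0.53, adjusted p = 0.0216), and its log2FC by edgeR was -0.75 without DMSO replicate 1. Bhmt, which remethylates homocysteine with betaine, had a log2FC of -2.26 by edgeR (adjusted p = 0.333) and of -0.44 without DMSO replicate 1. Of the fits of all libraries, Bhmt passed only in edgeR without the filter on low counts (adjusted p = 0.0287), and had an adjusted p of 0.0625 by DESeq2.

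The enzymes from choline to sarcosine had a median of -0.48 over 4 tested genes, and of -0.73 without DMSO replicate 1. Dmgdh, the mitochondrial dimethylglycine dehydrogenase, was at 4.93 and 5.03 FPKM in control and 1.18 and 1.3 in treated embryos. Here the controls were nearly equal, and the log2FC by edgeR was -2.16 with all libraries (adjusted p = 0.333) and -2.02 without DMSO replicate 1. DESeq2 called Dmgdh as lower (adjusted p = 0.0275). Over the edgeR and DESeq2 fits of all libraries its smallest adjusted p was 0.0266. Dmgdh had few counts, 255 and 247 in control and 66 and 69 in treated embryos. Among the other folate cycle enzymes (median 0.10 over 6 tested genes, 0.15 without DMSO replicate 1), Mthfs, which returns 5-formyl-tetrahydrofolate to the cycle, was at 12.8 and 32.7 FPKM in control and 97.8 and 78.9 in treated embryos. DESeq2 called Mthfs as higher (log2FC 1.89, standard error 0.55, adjusted p = 0.0220), and the log2FC by edgeR was 1.45 without DMSO replicate 1.

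No gene of the remaining 4 lists was called by edgeR or by DESeq2 with all libraries. Their medians were -0.80 for folate transport and retention (6 tested), -1.03 for serine and glycine transport (4 tested), -0.41 for enzymes that use serine (6 tested) and -0.92 for the formyl-folate steps of purine synthesis (2 tested). Without DMSO replicate 1 these medians were -0.36, -0.64, -0.33 and -0.78, in that order. The gene with the smallest p by edgeR was Folr1, a folate receptor, in the first (log2FC -1.29). It was Sfxn1, which carries serine into mitochondria, in the second (-2.87), Srr, serine racemase, in the third (-1.39) and Gart in the fourth (-1.46). All 4 had an adjusted p of 0.333 by edgeR, a value shared by many genes. Without DMSO replicate 1 the log2FC was -0.45 for Folr1, -2.00 for Sfxn1, -1.08 for Srr and -1.24 for Gart. The level of Sfxn1 was low, at 2.77 and 1.26 FPKM in DMSO replicates 1 and 2 and 0.25 and 0.38 in inhibitor replicates 1 and 2. DESeq2 gave Sfxn1 no adjusted p, so it could not be called there.

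**Figure D4:**
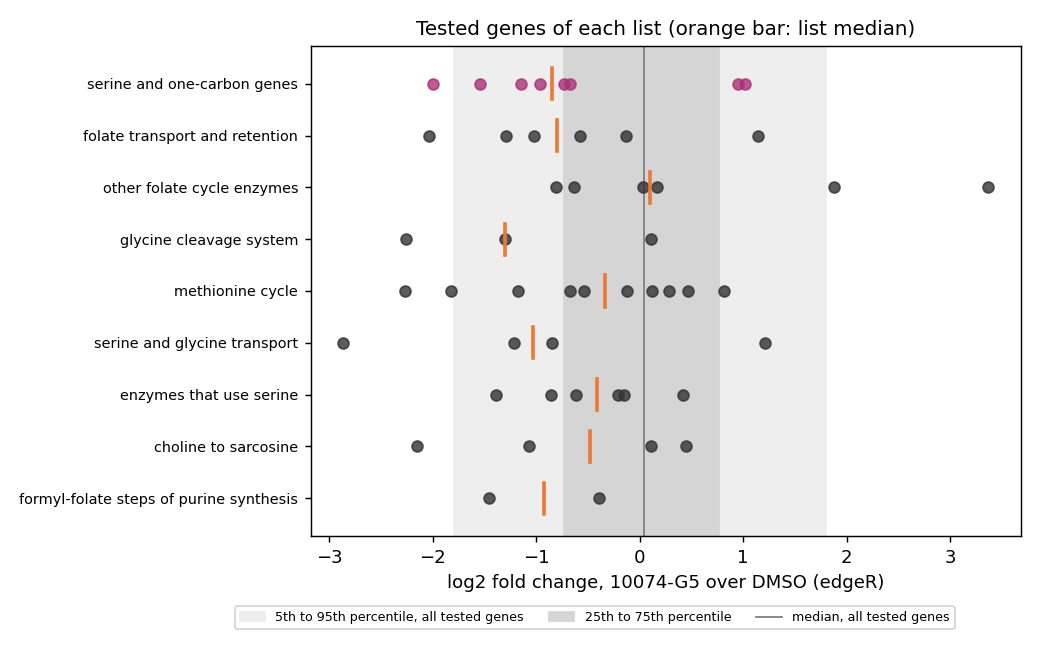
Log2FC (horizontal axis, treated over control, edgeR with all libraries) of the tested genes of serine synthesis and one-carbon metabolism (purple) and of the 8 other lists (black), with list medians in orange. Grey bands show where all 13549 tested genes lie, from -1.80 to 1.80 (5th to 95th percentile) and from -0.73 to 0.77 (25th to 75th percentile), and most points of each list fall within the wider band.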

How the data were processed

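Polyadenylated RNA of 4 pools of 10 late two-cell embryos was prepared with a SMART-Seq kit. The authors aligned read pairs to mm10 with STAR (2.7.10), kept uniquely mapped reads and quantified RefSeq genes with RSEM (1.3.3). The expected count deposited by the authors is RSEM's estimated number of fragments, not normalized. FPKM, which the authors took from RSEM, is per effective length and library size and was used for levels. TPM, also deposited, sums to the same total in each library. Reads of near-identical copies can be lost at unique mapping, PCR copies were counted as molecules, and the kit's strand setting is not given in the sources used here, so reads of overlapping genes cannot be told apart.

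Expected counts were rounded, filtered with filterByExpr (minimum count 10, total 15; 13549 genes), scaled with TMM and tested with edgeR 4.0.16 (quasi-likelihood, robust; R 4.3.3), with Benjamini-Hochberg adjustment over all tested genes. In edgeR this adjustment tied many genes at 0.333, among them Dmgdh (unadjusted p = 0.00486) and Bhmt (unadjusted p = 0.0326), so that value does not rank them. It is unrelated to the 0.333 of the permutation test. Standard errors are |log2FC| over the square root of F. Alternatives were DESeq2 1.42.0, limma 3.58.1 on log2(FPKM + 1) or log2(FPKM + 0.1), other scalings and filters, a replicate block, and each library left out. "By DESeq2" in the text refers to all genes with at least 1 count. Genes to which DESeq2 gave no adjusted p stayed without one. The study gives the libraries as biological replicates, and the labels do not say whether they came from separate cultures. The genes and the lists, written from general knowledge, were chosen with earlier results of these data known. All 9 genes were named, and of the lists the genes with an adjusted p under 0.05 in an edgeR or DESeq2 fit (read as the fits of all 4 libraries) and the gene with the smallest p. The methods were tested on simulated data with planted changes larger than those of the 9 genes and with no outlying library.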

Additional observations from a re-analysis of the deposited data

How the results depend on the processing

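The alternatives changed how many genes passed the thresholds more than they changed directions. Of the 9 genes, 1 was called as lower by DESeq2 on the same genes, by DESeq2 on every gene with a count, with or without effective lengths, and by edgeR without the filter on low counts. It was Phgdh each time. With each library left out in turn, from 0 to 4 of them were called as lower and from 0 to 2 as higher, and the largest numbers were those without DMSO replicate 2. Of the other pathway genes, 2 were called as lower by DESeq2 on the same genes, and 3 by DESeq2 on all genes with or without lengths and without the filter, with 1 called as higher in each. With each library left out these numbers ran from 0 to 13 and from 0 to 2. Of all genes, 479 were called as lower and 97 as higher by DESeq2 on the genes edgeR tested, 437 and 87 when every gene with a count entered, 438 and 87 with lengths, and 479 and 165 by edgeR without the filter. The replicate block gave 32 and 12 calls, none among the 9 genes or the other pathway genes. Libraries of the same number deviated together with a correlation of -0.03 over genes, and 2 pairs do not show that the numbers pair the samples. With each library left out the calls ran from 0 to 2025 lower and from 0 to 2147 higher. The median log2FC of the tested genes of the set ran from -1.30 (without DMSO replicate 2) to -0.022 (without DMSO replicate 1). Of 105 refitted log2FC values of single genes, 93 kept direction and side of the threshold and 10 kept direction and passed it. The 2 that turned were Mthfd1 (0.30) and Mthfd1l (0.16), both without DMSO replicate 1, against -1.25 and -1.27 without DMSO replicate 2. Library totals in place of TMM moved the median of all tested genes from 0.04 to 0.17 and turned no sign among the 8 genes. The ratios of mitochondrial to cytosolic enzymes moved by under 0.2% in TPM or CPM per kilobase. Low counts limit precision most in Mthfd1l (40 to 95 counts) and Aldh1l2 (0 to 26 counts). DESeq2 on the genes edgeR tested also gave no adjusted p to Psph (71 to 369 counts) and Mthfd1 (121 to 310 counts).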
